A study of Mus musculus with 3 samples.

Results

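miR-21a is the mouse miR-21, a microRNA (miRNA) known for its rise in injured and fibrotic tissue. Both arms of its hairpin, mmu-miR-21a-5p and mmu-miR-21a-3p (miR-21a-5p and miR-21a-3p from here on), were followed in mouse fibro/adipogenic progenitors, stromal cells between muscle fibres that are able to become fibroblasts or adipocytes. The members were chosen by name, and they are 2 of the 1097 items of the deposited miRNA table, 659 of which are mature mouse miRNAs. Each arm had 1 row in the table. The progenitors came from wild-type muscle without culture. The normal library came from uninjured muscle, the cardiotoxin library from muscle 5 days after injection of that venom toxin, which destroys fibres and is followed by regeneration, and the denervated library from muscle whose sciatic nerve supply had been lost for 3 weeks, a model of atrophy. The sources used here do not give strain, age, sex, the number of animals behind a library or how the cells were sorted. There was 1 library per condition, so no difference below has a replicate check, no test between conditions was run, and a range in parentheses is a 95% interval of counting error alone.

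A miRNA hairpin is cut by Drosha and then by Dicer into a duplex, of which usually the strand called the guide stays in Argonaute and directs the repression of messenger RNAs through its seed, bases 2 to 8. For miR-21 the guide is the 5p strand. Its known targets include Pdcd4, Spry1 and Smad7, and in fibroblasts of heart and lung it is known to favour survival and matrix production. Receptor SMADs, the signal carriers of TGF-beta, are known to promote the processing of the human miR-21 hairpin.

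The sequences of both arms and of the mouse relatives miR-21b and miR-21c are shown because they decide which reads can be told apart. They come from RefSeq (GRCm38.p6), 5′ to 3′, with the seed in capitals.
miR-21a-5p: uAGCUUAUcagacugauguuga
miR-21a-3p: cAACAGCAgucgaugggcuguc
miR-21b: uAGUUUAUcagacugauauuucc
miR-21c: uAGCUUAUcagacugguacaa
The deposited sequences of both miR-21a rows equalled the RefSeq ones. miR-21c has the seed of miR-21a-5p, and no other of the 1679 mature names in the RefSeq table has it. miR-21b differs from miR-21a-5p within the seed (C4U, counted from the 5′ end). No other mature sequence in that table has the seed of miR-21a-3p.

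The miR-21a hairpin lies at chr11:86584067-86584158 on the minus strand (GRCm38). In the GENCODE M21 annotation it sits inside exon 12 of Vmp1, a gene for a membrane protein of autophagy on the same strand, in the stretch annotated as untranslated. miR-21a-5p comes from chr11:86584120-86584141 and miR-21a-3p from chr11:86584082-86584103.

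Library depth was 4471365 counts for normal, 3636249 for cardiotoxin and 7193088 for denervated. As a check of the cell type label, 11 miRNAs of mesenchymal cells summed to 331301 CPM (counts per 1000000 counts of the library) in normal, 309161 in denervated and 25566 in cardiotoxin, where miR-214-5p was at a count of 0. The 8 leukocyte miRNAs summed to 422 CPM in normal, 762 in denervated and 24009 in cardiotoxin, and miR-223-5p and miR-511-3p were at 0 in normal and denervated. The library labelled cardiotoxin thus held less of the summed mesenchymal and more of the summed leukocyte miRNAs than the other 2 libraries. Among the mesenchymal ones miR-10a-5p was higher there, at 906, 6712 and 357 CPM in normal, cardiotoxin and denervated. In such bulk libraries, fewer cells of a type and less RNA per cell cannot be told apart.

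miR-21a-5p, the guide strand, had 95792 counts in normal, 1958922 in cardiotoxin and 746370 in denervated. This was 21423 CPM in normal (21289 to 21558), 538721 CPM in cardiotoxin (538208 to 539233) and 103762 CPM in denervated (103539 to 103985). Its level was lowest in normal and highest in cardiotoxin, with denervated in between. miR-21a-3p, the strand usually discarded, had 258 counts in normal, 2476 in cardiotoxin and 1890 in denervated. This was 57.7 CPM in normal (50.9 to 65.2), 681 CPM in cardiotoxin (654 to 708) and 263 CPM in denervated (251 to 275). The order of the libraries was that of the 5p arm.

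**Figure D1:**
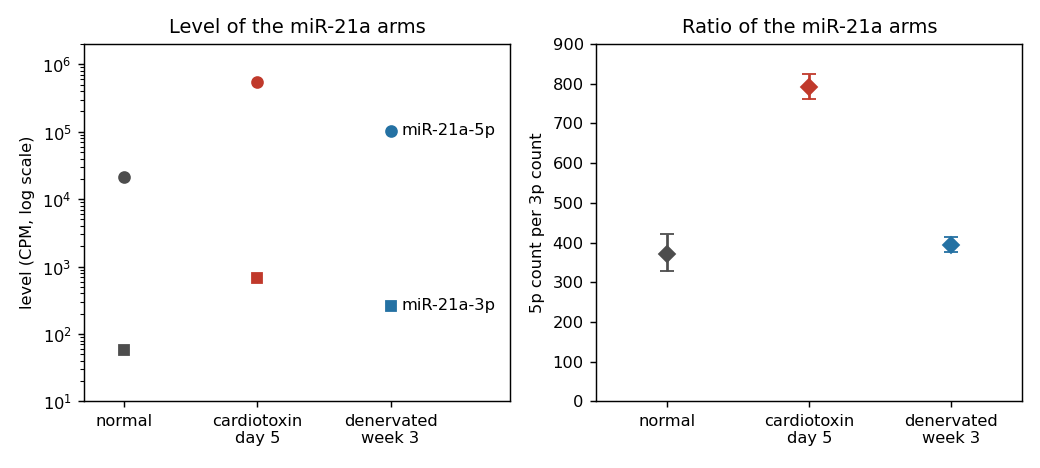
Left, level of miR-21a-5p (circles) and miR-21a-3p (squares) in CPM, on a log axis. Right, count of the 5p arm per count of the 3p arm. Each point is 1 library and bars are 95% intervals of counting error, which at left are mostly smaller than the symbols. Both arms are lowest in normal and highest in cardiotoxin, and the arm ratio is 791 in cardiotoxin against 371 in normal and 395 in denervated.

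Among all 1097 items, miR-21a-5p ranked 12 in normal, between miR-125a-5p at 25309 CPM and let-7i-5p at 20769 CPM. It ranked 1 in cardiotoxin, at 15.4 times the level of miR-27b-3p, the next item. In denervated it was also the highest row, at 1.87 times miR-125b-5p. The rows of miR-99a-5p and miR-100-5p had equal counts in each library, and taken as 1 item at 108314 CPM they stood above it in denervated. miR-21a-3p ranked 258 in normal, 151 in denervated and 92 in cardiotoxin, where it was next to the mesenchymal miR-125b-5p at 664 CPM. The 5 highest rows of normal were miR-99a-5p, miR-100-5p, miR-125b-5p, miR-27b-3p and miR-199b-3p. In cardiotoxin they were miR-21a-5p, miR-27b-3p, let-7i-5p, let-7g-5p and miR-30d-5p, and in denervated miR-21a-5p, miR-125b-5p, miR-99a-5p, miR-100-5p and miR-199b-3p.

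**Figure D2:**
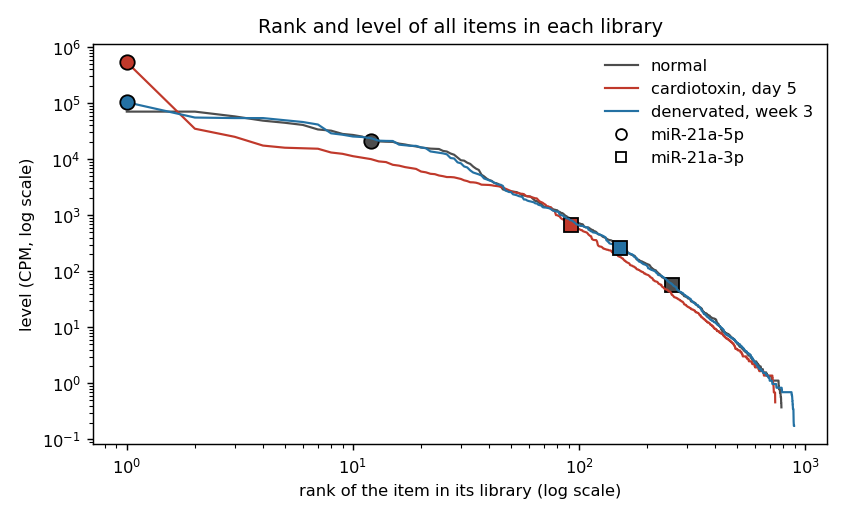
Level in CPM (log axis) of every detected item against its rank in the library (log axis), 1 line per library. Circles mark miR-21a-5p, at rank 12 in normal and rank 1 in the other 2 libraries. Squares mark miR-21a-3p, at ranks 258, 151 and 92 in normal, denervated and cardiotoxin.

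miR-21a-5p made up 2.14% of all counts in normal (2.13 to 2.16), 10.4% in denervated and 53.9% in cardiotoxin (53.8 to 53.9). To reach 50% of the counts took the 12 highest items in normal, 11 in denervated and 1, miR-21a-5p, in cardiotoxin. Without miR-21a-5p, 50% of the remaining counts took 12, 18 and 12 items in normal, cardiotoxin and denervated. From normal to cardiotoxin 477 items rose in CPM by any amount, and miR-21a-5p accounted for 78.4% of their summed gain. The next largest gain, of the endothelial miR-126a-3p, was 11124 CPM against 517297 CPM for miR-21a-5p. From normal to denervated miR-21a-5p accounted for 52.2% of the summed gain of 483 items, with 82339 CPM against 13768 CPM for the mesenchymal miR-199a-5p, the next. The share of the 3p arm stayed small, at 0.00577% of counts in normal, 0.0263% in denervated and 0.0681% in cardiotoxin.

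Cardiotoxin was set against normal to describe miR-21a during regeneration. The guide strand stood 25.1-fold above normal (24.98 to 25.3) and the 3p arm 11.8-fold above it (10.4 to 13.5). Both arms were past 2-fold, as were 144 (32.3%) of the 446 items that averaged 10 CPM or more, while 176 (39.5%) were at least 2-fold lower. On the scale of log2 of CPM plus 1, the ratio of miR-21a-5p was 4.65 and ranked 14 of 446. That of miR-21a-3p was 3.54 and ranked 29, while the median of all items was -0.09. Beside these values the summed leukocyte miRNAs were 56.9-fold higher and the summed mesenchymal miRNAs 13.0-fold lower, in CPM with miR-21a-5p in the totals. The summed endothelial miRNAs (both miR-126a arms) were 3.56-fold higher, and the part of these cells in the level of miR-21a was not tested. miR-21a-5p had 50.7 counts per leukocyte count in normal and 22.4 in cardiotoxin.

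Denervated was set against normal to describe miR-21a in muscle without its nerve. The guide strand stood 4.84-fold above normal (4.81 to 4.88) and the 3p arm 4.55-fold above it (3.996 to 5.21), and these intervals overlap. Both arms were past 2-fold, as were 28 of 446 items (6.28%), and another 28 (6.28%) were at least 2-fold lower. The log2 ratios of 2.28 for the 5p arm and 2.17 for the 3p arm ranked 6 and 9 of 446, with a median of -0.09 over all items. The summed mesenchymal miRNAs were 1.07-fold lower and the leukocyte miRNAs 1.80-fold higher, with 136 counts of miR-21a-5p per leukocyte count. Of the 8 leukocyte miRNAs, 4 were at least 2-fold higher, beside 6.28% of all items, and none was 2-fold lower. The 4 were miR-142a-3p (8.16-fold), miR-223-3p (6.40-fold), miR-142a-5p (4.42-fold) and miR-155-5p (2.26-fold). miR-342-3p, the most abundant of the 8 in both libraries, was 1.01-fold higher. The part of leukocytes in the level of miR-21a was not tested. The muscle fibre miRNAs summed to 897 CPM in normal and 3140 in denervated, which was 3.50-fold higher, and the part of fibres in the level of miR-21a was not tested. A deposited sheet of 21 selected miRNAs for this pair of libraries lists no miR-21a arm.

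Between the injuries, the guide strand stood 5.19-fold higher in cardiotoxin than in denervated (5.18 to 5.21). The 3p arm stood 2.59-fold higher (2.44 to 2.75). In this comparison 150 of 446 items (33.6%), both arms among them, were at least 2-fold higher and 172 (38.6%) at least 2-fold lower. The 3p arm was just under 2-fold with TMM factors (1.98-fold) and with the authors' normalized signal (1.97-fold). The log2 ratios of 2.38 and 1.37 ranked 64 and 113 of 446, so both arms lay further from the top than in either injury against normal. The 3 comparisons share libraries, so their values are not independent.

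**Figure D3:**
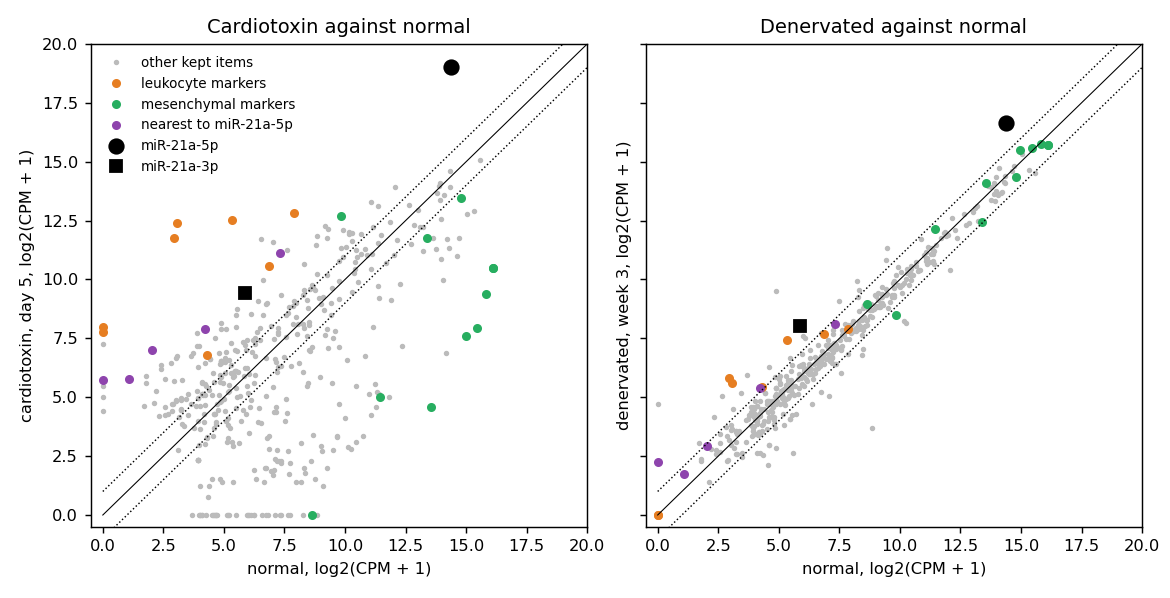
Level in cardiotoxin (left) and denervated (right) against normal, as log2 of CPM plus 1, for 446 items. The solid line marks equal levels and dotted lines 2-fold. miR-21a-5p is the highest point on the vertical axis in both panels, and both of its arms lie above the upper dotted line. In the left panel 8 of 8 leukocyte markers lie above the upper dotted line and 10 of 11 mesenchymal markers below the lower one. The other 1, miR-10a-5p, lies above the upper line there. In the right panel 4 of 8 leukocyte markers lie above and 1 of 11 mesenchymal markers below, beside 6.28% of all items each way.

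The ratio of the arms does not depend on how libraries are scaled. There were 371 counts of miR-21a-5p per count of miR-21a-3p in normal (329 to 421), 395 in denervated (377 to 413) and 791 in cardiotoxin (761 to 823). The 3p arm was therefore 0.269% of the miR-21a counts in normal, 0.253% in denervated and 0.126% in cardiotoxin. The ratio was 2.13-fold higher in cardiotoxin than in normal (1.87 to 2.42) and 2.003-fold higher than in denervated (1.89 to 2.13). Denervated and normal differed by 1.06-fold (0.930 to 1.21), an interval that includes 1.

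Among 101 hairpins with both arms at a mean of at least 10 CPM, miR-21a was one of the most unequal. Ordered by how far the arms were apart, it ranked 9 in normal, 9 in denervated and 2 in cardiotoxin. The 5p-to-3p ratio was at least 2-fold higher in cardiotoxin than in normal for 28 of the 101 hairpins (27.7%), miR-21a included. It was at least 2-fold lower for 19 (18.8%). Of the 100 other hairpins, 44 changed at least as much as miR-21a in either direction. Against denervated, 22 of 101 (21.8%) were at least 2-fold higher in cardiotoxin, miR-21a with them, and 22 (21.8%) at least 2-fold lower. In that comparison 43 others changed at least as much as miR-21a. Between denervated and normal only 4 of 101 (3.96%) were at least 2-fold higher and 4 (3.96%) at least 2-fold lower. miR-21a was in neither group, and 81 others changed at least as much. These counts were made with 0.5 added to each arm's count.

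The 5 hairpins with the largest falls of the ratio from normal to cardiotoxin were miR-485, miR-214, miR-676, miR-376b and miR-380, each with a 5p count of 0 in cardiotoxin. The 5 with the largest rises were miR-130b, miR-99a, miR-382, let-7e and miR-671, of which miR-99a and miR-382 had a 3p count of 0 in cardiotoxin and miR-130b a 5p count of 0 in normal. The change of miR-21a rests on at least 258 counts in each arm. Of the 7 hairpins with a mean 5p level of at least 10000 CPM, miR-99a had the largest change, its 3p count being 0 in cardiotoxin and its 5p count equal to that of miR-100, and let-7i was closest to miR-21a, with a log2 change of 0.93 against 1.09. miR-30d changed by 0.43, miR-30a by 0.11, miR-125a by 0.03 and let-7b by -0.27.

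**Figure D4:**
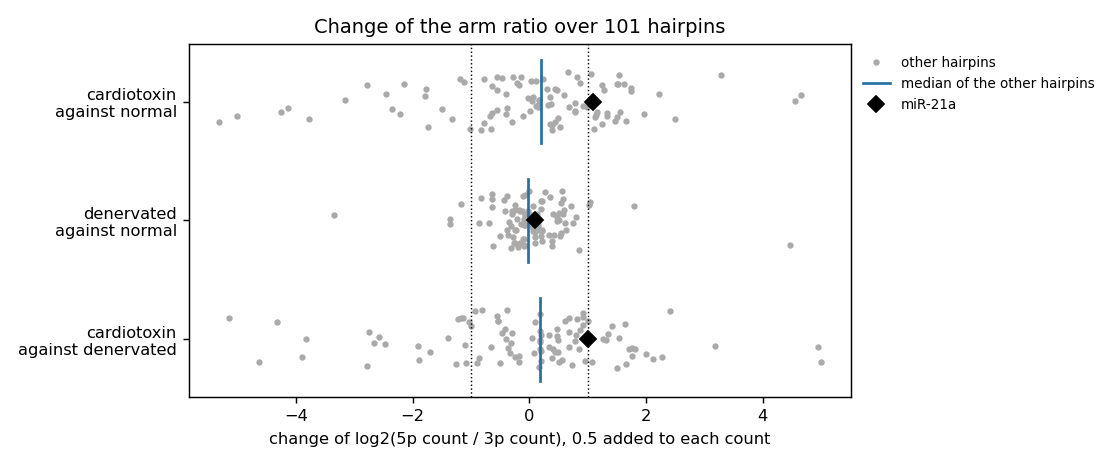
Change of the log2 ratio of 5p to 3p counts between libraries, with 0.5 added to each count, for 101 hairpins. Grey points are the other hairpins (vertical scatter has no meaning), blue lines their median, black diamonds miR-21a and dotted lines 2-fold. miR-21a lies at 1.09 in cardiotoxin against normal, at 0.09 in denervated against normal and at 1.0 in cardiotoxin against denervated, each time within the cloud of other hairpins.

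The relatives of miR-21a were close to absent. The table has a row for miR-21b and a row for miR-21c, which carry the same 18 bases, printed here with the base that differs from miR-21a-5p in capitals (G18A).
Row of miR-21b and of miR-21c: tagcttatcagactgatA
Each of these rows had 9.33 counts in denervated (1.30 CPM) and 0 in normal and cardiotoxin, where a count of 0 allows up to 3 counts, or 0.671 and 0.825 CPM. The 18 bases differ by 1 base from RefSeq's miR-21b (T4C) and by 1 from its miR-21c (G16A), so they match neither exactly. 3 rows of this size come to 28 counts, and the count of miR-21a-5p in denervated ends in 0.333 as these rows do. The sources used here do not say how such reads were divided, and adding both rows to miR-21a-5p left its fold at 4.84.

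Because miR-21a-5p filled 53.9% of the cardiotoxin library, its level entered the CPM of every other item there. When totals were taken without it, levels in cardiotoxin relative to normal were 2.12-fold higher for each of the other items. The median log2 ratio then moved by 1.04 to 0.95 over all items. With this, 61 items went from below to above normal. The split of higher to lower items was 220 to 134 in place of 144 to 176. Against denervated it was 212 to 135 in place of 150 to 172, and 110 to 191 with TMM factors, which gave 114 to 190 in cardiotoxin against normal. Between denervated and normal it was 29 to 24 in place of 28 to 28.

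The fold of miR-21a itself depended on this choice in size but not in direction. Against the rest of the library, miR-21a-5p was 53.3-fold higher in cardiotoxin than in normal and 10.1-fold higher than in denervated, and miR-21a-3p was 25.04-fold and 5.04-fold higher. Against the geometric mean of 8 miRNAs often used as references in quantitative PCR, miR-21a-5p stood at 4.09 in normal, 97.2 in cardiotoxin and 17.7 in denervated. Some references moved themselves, and in cardiotoxin against normal miR-16-5p was 2.53-fold and miR-423-5p 2.80-fold higher, while let-7a-5p and miR-26a-5p were 2.69-fold and 4.87-fold lower. With totals without miR-21a-5p, 6 of the 8 references were at least 2-fold higher and 1 lower. Between denervated and normal none of the 8 was 2-fold apart.

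**Figure D5:**
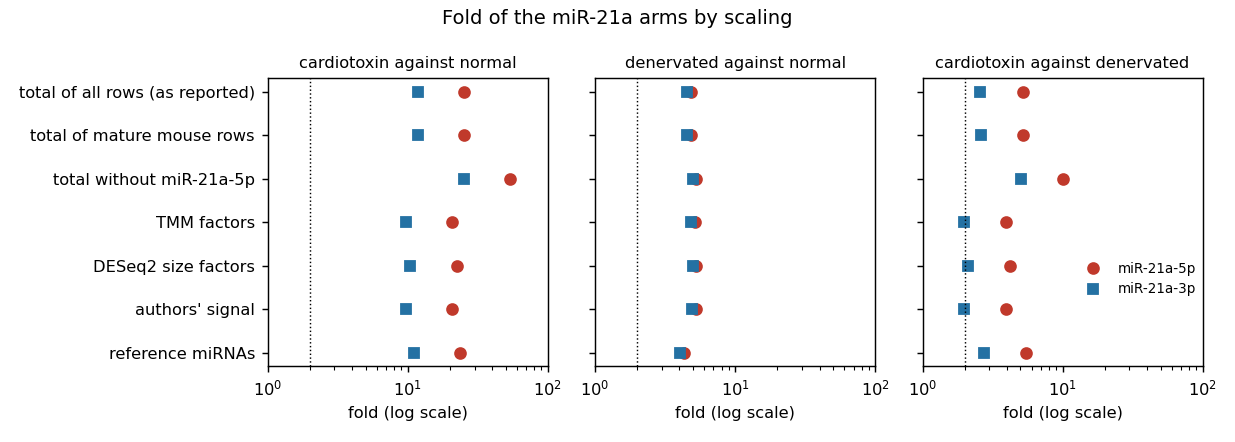
Fold of miR-21a-5p (red circles) and miR-21a-3p (blue squares) in the 3 comparisons, on a log axis, under 7 ways to scale the libraries. The dotted line marks 2-fold. All values lie above 1, the 5p arm in cardiotoxin against normal between 20.6 and 53.3, and only the 3p arm in cardiotoxin against denervated reaches below 2-fold.

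The miRNAs whose levels over the 3 libraries were most like those of miR-21a-5p were sought by the distance between the pairs of log2 ratios to normal, over 364 mature mouse miRNAs. The nearest were miR-130b-5p (distance 1.08), miR-21a-3p (1.12), miR-18a-5p (1.45), miR-19a-3p (1.49), miR-18a-3p (1.61) and miR-20a-5p (1.69). All were far less abundant. miR-130b-5p had 0 CPM in normal, 52.0 in cardiotoxin and 3.75 in denervated, so its log2 ratios rest on the pseudocount of 1 CPM. It passed the 10 CPM filter through the cardiotoxin library alone, as did miR-18a-5p and miR-18a-3p. Their high ratios of cardiotoxin to normal were thus in part fixed by the filter. miR-20a-5p, a member of the proliferation-linked miR-17-92 cluster along with miR-18a and miR-19a, had 157, 2227 and 276 CPM in normal, cardiotoxin and denervated. Among the 94 miRNAs averaging 1000 CPM or more, the nearest were miR-342-3p, one of the leukocyte markers, at a distance of 2.27, miR-7a-5p at 2.36 and miR-34a-5p at 2.48. These 3 reached that mean through the cardiotoxin library alone, so a high ratio of cardiotoxin to the other libraries was in part fixed by the filter. Their log2 ratios of denervated to normal were 0.02, -0.03 and -0.21, against 2.28 for miR-21a-5p. For miR-21a-3p the nearest were miR-505-3p (distance 0.99), miR-19a-3p (1.01) and its own 5p arm (1.12). Here too miR-505-3p passed the 10 CPM filter through the cardiotoxin library alone, with 2.24, 23.9 and 7.37 CPM in normal, cardiotoxin and denervated.

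Other miRNAs were described by lists, whose counts stand beside the shares over all 446 items, 32.3% higher and 39.5% lower in cardiotoxin against normal and 6.28% each way in denervated against normal. Of 6 others taken as promoting injury responses and fibrosis, 2 were at least 2-fold higher and 3 at least 2-fold lower in cardiotoxin than in normal, which is near the shares over all items, and the list's median log2 ratio was -1.01. This median turned to 0.07 when miR-21a-5p was taken out of the totals, and 2 were then lower. miR-155-5p, a miRNA of activated immune cells, had 18.8, 111 and 42.5 CPM in normal, cardiotoxin and denervated. miR-34a-5p, inducible by p53, had 130, 3117 and 113 CPM. miR-214-3p, a miRNA of mesenchymal cells, had 2819, 31.4 and 4517 CPM. The others were miR-199a-5p and miR-192-5p, which were lower in cardiotoxin, and miR-27a-3p, which was within 2-fold. In denervated against normal, 1 of the 6 (miR-155-5p) was at least 2-fold higher and none was 2-fold lower, with a median of 0.15 that was -0.01 against the reference miRNAs.

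Of 12 miRNAs taken as restraining fibrosis, 4 were at least 2-fold higher in cardiotoxin than in normal, 5 were at least 2-fold lower, again near the shares of 32.3% and 39.5% over all items, and the median was -0.87. With totals free of miR-21a-5p the median turned to 0.21, with 4 higher and 3 lower. The lower ones include miR-26a-5p, with 33919, 6964 and 41554 CPM in normal, cardiotoxin and denervated, and miR-101a-3p, with 27066, 3466 and 28972 CPM. miR-29a-3p, a repressor of collagens, had 17463, 12459 and 27323 CPM. The higher ones were miR-29b-3p, miR-206-3p, a muscle miRNA, and miR-200b-3p and miR-200c-3p, which are epithelial. In denervated against normal 3 were higher (miR-206-3p, miR-133a-3p and miR-29b-3p), 2 were lower (miR-200b-3p and miR-200c-3p) and the median was 0.20. The higher miR-206-3p and miR-133a-3p are also in the muscle fibre list.

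Of 8 other miRNAs inducible in inflammation and passing the 10 CPM filter, 5 were at least 2-fold higher in cardiotoxin than in normal and 1 lower, beside 32.3% and 39.5% of all items, with a median of 2.40. The lower one was miR-125a-5p, the most abundant of the 8 in normal, with 25309, 2035 and 24836 CPM in normal, cardiotoxin and denervated. Of the 5, miR-147-3p passed the filter through the cardiotoxin library alone. miR-146a-5p, which restrains NF-kB signalling, had 584, 4976 and 449 CPM in normal, cardiotoxin and denervated. miR-146b-5p had 320, 1593 and 750 CPM. In denervated against normal 3 of the 8 were higher (miR-146b-5p, miR-155-5p and miR-223-3p) and none was 2-fold lower, with a median of 0.44. Of these 8, miR-155-5p and miR-223-3p are also in the leukocyte list, whose members were all higher in the cardiotoxin library. In that list miR-223-5p and miR-511-3p passed the filter through the cardiotoxin library alone.

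The letters CAGAC, which receptor SMADs bind in the human miR-21 hairpin, were searched on the hairpin's own strand. They occur at bases 9 to 13 of miR-21a-5p, not in miR-21a-3p, and in 80 of 1005 hairpins in the RefSeq table (7.96%). Besides both miR-21a arms, 10 miRNAs from such hairpins passed the 10 CPM filter. In cardiotoxin against normal 3 of the 10 were at least 2-fold higher, namely miR-146a-5p, miR-146b-5p and miR-3968, and 5 were lower, among them miR-199a-5p and both miR-214 arms, beside 32.3% higher and 39.5% lower over all items. The median was -0.90, and it turned to 0.18 when totals excluded miR-21a-5p. In denervated against normal 1 was higher, miR-146b-5p, and 2 were lower, miR-542-3p and miR-3473e, with a median of 0.03 that was -0.13 against the reference miRNAs.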

How the data were processed

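Small RNA libraries were made from total RNA with an Illumina TruSeq kit, per the labels' protocols. The authors deposited estimated counts for every miRNA row, called raw per the file headers, of which 87.9% to 88.4% were whole numbers within 1e-06. The authors also deposited a normalized signal, per the file headers, and its values equalled the count times 1 factor per library. The authors' deposited chi-square p-value was not used. The sources used here do not give the aligner, the miRNA release or the genome build, and the submitters' processing notes name StringTie. A further 3 lines, empty in the copy used, are not analysed here. No per-sample column belonged to another series.

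Rows were summed by mature mouse name, and each count was divided by the library total over all 1108 rows and scaled to 1000000 (CPM). Library totals of 3636249 to 7193088 set the precision. Folds used CPM with no pseudocount. Ratios over all items used log2 of CPM plus 1 and a mean of at least 10 CPM. Intervals are exact at 95% on rounded counts, and binomial (Clopper-Pearson) for levels, shares, folds and the arm ratio within a library. For changes of the arm ratio between libraries they are exact conditional intervals of the odds ratio. PCR copies cannot be told from molecules. Interval code was tested on simulated data. The alternatives used TMM factors (edgeR 4.0.16) and DESeq2 1.42.0 size factors, neither as a test, with Python 3.11.15 and SciPy 1.17.1. Members, lists and alternatives were chosen with earlier results of these data known. Named miRNAs are both arms, same-seed relatives, the top items, the nearest profiles, the hairpins with the largest arm changes and up to 6 members per list by level. Outside this rule, miR-10a-5p, miR-29b-3p, miR-147-3p, miR-214-5p, miR-511-3p, miR-542-3p, miR-3473e, miR-16-5p, miR-423-5p and miR-505-3p were named after their values were seen. Summed levels of the endothelial, epithelial and erythroid markers are given in the closing section.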

Additional observations from a re-analysis of the deposited data

How the results depend on the processing

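Both arms kept their direction in all 3 comparisons under every scaling tried. Each arm had 1 row, so taking only its highest row could not change a fold. In cardiotoxin against normal miR-21a-5p was 53.3-fold higher with its own counts left out of the totals, 25.3-fold with mature mouse rows only, 20.6-fold with TMM factors, 22.3-fold with DESeq2 size factors, 20.7-fold with the authors' signal and 23.8-fold against the reference miRNAs. In denervated against normal the values were 5.29-fold, 5.19-fold (TMM), 5.29-fold (DESeq2), 5.23-fold (authors' signal) and 4.33-fold (references). In cardiotoxin against denervated they were 10.1-fold, 5.23-fold (mature rows), 3.97-fold, 4.22-fold, 3.95-fold and 5.49-fold. miR-21a-3p was 25.04-fold, 9.67-fold (TMM) and 9.70-fold (authors' signal) higher in cardiotoxin than in normal. Against denervated it was 5.04-fold, 1.98-fold (TMM), 2.11-fold (DESeq2) and 1.97-fold (authors' signal) higher. With the equal rows of miR-99a and miR-100 as 1, miR-21a-5p ranked 11 in normal and 2 in denervated. The alternatives for the arm ratio could not test it, because taking only the highest row changes nothing where each arm has 1 row. Rounding the counts could move only the 5p count of denervated. The miR-21b and miR-21c rows were added as an alternative chosen after seeing the data.

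Without a filter, 342 items were 2-fold higher and 360 lower in cardiotoxin than in normal, 109 and 128 in denervated than in normal, and 340 and 318 in cardiotoxin than in denervated. With a mean of at least 100 CPM the counts were 60 and 94, 13 and 12, and 60 and 93. Both filters change how many items are tested. With both arms at 50 CPM or more, 28, 47 and 26 of 59 other hairpins changed at least as much as miR-21a in these 3 comparisons.

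The summed endothelial miRNAs were at 5401, 19251 and 1659 CPM in normal, cardiotoxin and denervated, the epithelial ones at 900.4, 287 and 468, the erythroid ones at 68.8, 94.1 and 98.3, and the muscle fibre ones in cardiotoxin at 922. Their part in the level of miR-21a was not tested. With 1 library per condition, animal, batch and condition cannot be told apart. The 258 counts of miR-21a-3p in normal limit the precision of its folds and of the arm ratio. No paired analysis was possible because each condition had 1 library.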
